A study of Mus musculus with 47 samples.

Results

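Bcl11b was deleted in thymic precursors that had already switched the gene on, and RNA-seq was used to compare 1 knockout library with 2 control libraries grown on the same stroma. These 3 libraries were chosen by their labels from the 47 of the series: thymocytes of the DN3 stage that carried CreERT2, a Cre recombinase that enters the nucleus when tamoxifen is given, expressed throughout the body from the ROSA26 locus. All 3 cultures began as DN3a cells sorted from thymus, received 4-hydroxytamoxifen at 100 nM, and were grown on OP9-DL4, a bone marrow stromal line that presents the Notch ligand Delta-like 4, before they were sorted again. The knockout library came from the PLBD line, homozygous for a floxed Bcl11b allele, after 4 days of culture. Both controls came from the line titled ERTII, which the labels describe as carrying CreERT2 without naming a floxed allele. One control was harvested on day 4 under the same title date as the knockout, and the other on day 3 under another title date. Both lines were also sequenced as undeleted DN3 cells directly after sorting, 1 library each, under a title date 4 days before the day 4 cultures. The ages of the mice, the number of mice behind a library, whether the control line has the same genetic background, and which part of Bcl11b is removed are not given in the labels.

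Bcl11b is a zinc-finger transcription factor that turns on when precursors commit to the T lineage in the CD4-CD8- (double-negative) stages of the thymus. It is known for supporting genes of the T-cell receptor complex and for keeping programmes of natural killer (NK) cells, innate lymphoid cells and earlier progenitors off. DN3 cells rearrange the T-cell receptor beta gene under Notch signalling. They are defined by CD25, the receptor chain encoded by Il2ra, and by the pre-T-cell receptor, whose invariant alpha chain is encoded by Ptcra.

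With 1 library per condition, the differences have no replicate check and no test was possible. A gene was described as higher or lower when the knockout value lay outside both controls by 2-fold, measured as the distance to the nearer control on log2(FPKM + 1), called the margin here. FPKM is a fragment count scaled by transcript length and by the number of mapped fragments, and the values are those adjusted by the authors, with a lowest value of 0.1 FPKM. A value of 0.1 is written as listed at the floor, because it can also be a result of the adjustment, and no fold is given against it. Sequencing depth is unknown. Column totals of the 3 libraries were 656326 FPKM (knockout), 700713 FPKM (day 4 control) and 892858 FPKM (day 3 control), and 13169, 12240 and 12612 genes reached 1 FPKM.

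Several properties separated the lines or the libraries apart from the deletion. The uncultured floxed and CreERT2 libraries, both undeleted, differed 2-fold at 1282 of 13533 genes (5.13% higher and 4.34% lower in the floxed library). Mitochondrial transcripts made up 9.31% of the knockout total against 3.80% and 3.71% in the controls, and 6.90% against 3.30% in the uncultured floxed and CreERT2 libraries. The Y-linked Ddx3y stood at 12.9 FPKM in the knockout library, 1.48 in the day 4 control and 6.49 in the day 3 control, and Xist, expressed from the inactive X chromosome, at 60.2, 212 and 58.4 FPKM. The cultured controls differed from each other 2-fold at 890 of 13188 genes. In the day 4 control, 19 genes with a median of at least 20 FPKM over the other libraries were listed at the floor, among them Hes1. The knockout library had 9 such genes, among them Ptcra. The part of these properties in the results below was not tested.

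Bcl11b itself measured 23.8 FPKM in the knockout library, 79.3 in the day 4 control and 61.2 in the day 3 control. The knockout value was 3.34-fold below the day 4 control and 2.58-fold below the day 3 control, a margin of -1.33. Undeleted cells held 133 FPKM in the uncultured floxed library and 100 in the uncultured CreERT2 library, so all 4 libraries without deletion lay above the knockout. Transcript remained in the knockout library; an FPKM over the whole gene cannot show how many alleles were removed.

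Id2, Cd160 and Ptcra were looked up as markers of the experiment, and each lay beyond both controls. Id2, an inhibitor of E-protein transcription factors that innate lymphoid and NK cells require, measured 98.6 FPKM in the knockout library, 12.4 in the day 4 control and 12.0 in the day 3 control. Its value was 7.98-fold and 8.21-fold above the controls, which lay close together. Cd160, an NK-type surface receptor, measured 79.6 FPKM in the knockout library and 8.43 in the day 3 control, and was listed at the floor in the day 4 control. Ptcra was listed at the floor in the knockout library and stood at 30.2 FPKM in the day 4 control and 87.3 FPKM in the day 3 control. For all 3 genes the uncultured libraries lay on the control side of the knockout, with Ptcra at 114 FPKM in the uncultured floxed library and 177 in the uncultured CreERT2 library. In these bulk libraries, fewer cells of a type and less RNA per cell cannot be told apart.

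Of the 8 markers of the DN3 stage looked up, Il2ra, Notch1, Notch3, Dtx1, Rag1, Cd3e and Cd3g were above 10 FPKM in all 3 cultured libraries. Ptcra was the one listed at the floor in the knockout library.

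Across all genes, 14157 of 17754 reached 1 FPKM in at least 1 of the 3 libraries. Of these, 986 (6.96%) were higher in the knockout by 2-fold beyond both controls and 396 (2.8%) were lower. By any amount, 6904 (48.8%) lay above both controls and 3930 (27.8%) below both. This split is uneven in part by construction. Only 13188 genes reached 1 FPKM in a control, and those that passed through the knockout alone must lie above both controls. The median of the 14157 genes, knockout minus the mean of the controls, was 0.16 on the log2 scale. Every direction below is read against that shift. Centring each library on its median gave 768 higher and 559 lower, and quantile normalization 740 and 541. Against the day 4 control alone 1418 genes were higher and 641 lower, and against the day 3 control alone 1759 and 927. Of the 986 higher genes, 501 were also 2-fold above both uncultured libraries and 100 already differed 2-fold the same way between the undeleted lines. Of the 396 lower genes, 130 were also 2-fold below both uncultured libraries and 125 already differed the same way between the lines.

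**Figure D1:**
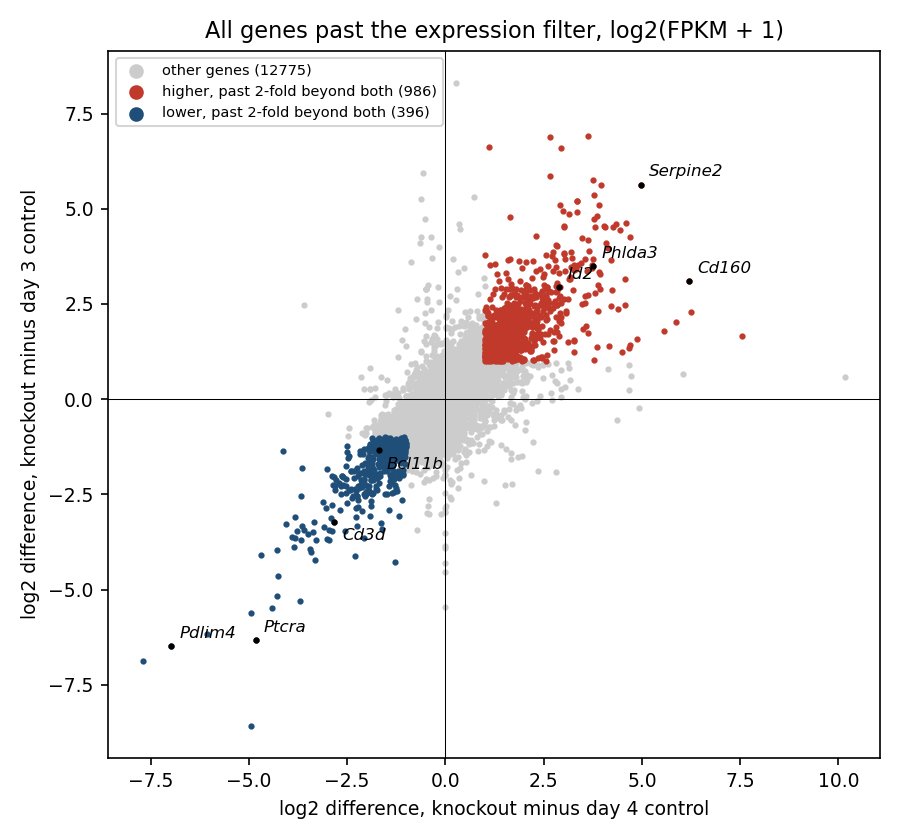
Each point is 1 of the 14157 genes past the filter; the axes give the log2(FPKM + 1) difference of the knockout library from the day 4 control (horizontal) and from the day 3 control (vertical). The 986 genes higher by 2-fold beyond both controls lie in the upper right, with Id2, Cd160, Phlda3 and Serpine2, and the 396 lower genes in the lower left, with Bcl11b, Cd3d, Ptcra and Pdlim4.

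Genes of the T-cell receptor complex differed unequally. Of 22 genes of receptor components and proximal signalling, 7 were lower (2.8% of all genes were) and 3 higher (6.96% of all genes). By any amount 14 lay below both controls, as did 27.8% of all genes. The median difference was -0.63, against 0.11 over all genes in the table and -0.31 between the undeleted lines. Cd3d, which encodes the delta signalling chain, measured 49.7 FPKM in the knockout library, 357 in the day 4 control and 469 in the day 3 control, a 7.19-fold and 9.44-fold lower level. Cd3g, the gamma chain, measured 251 FPKM in the knockout library, 618 in the day 4 control and 1373 in the day 3 control. Both were below all 4 undeleted or control libraries. Cd3e, the epsilon chain of the same complex, measured 140.5 FPKM in the knockout library, 140.2 in the day 4 control and 173 in the day 3 control, so the knockout did not lie beyond the day 4 control. Cd247, the zeta chain, had a margin of -0.32.

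Surface molecules of developing T cells were among the lower genes. Cd2, an adhesion receptor, measured 3.14 FPKM in the knockout library, 105 in the day 4 control and 69.3 in the day 3 control, which placed the knockout 22.1-fold below the nearer control. The uncultured libraries were also low, at 10.6 and 10.7 FPKM, so the cultured controls were the high ones. Cd5, a negative regulator of receptor signalling, measured 1.07 FPKM in the knockout library, 6.55 in the day 4 control and 7.25 in the day 3 control, and here the uncultured libraries sided with the controls (5.47 and 10.9 FPKM). Cd200, which belongs to the inhibitory and costimulatory list, was listed at the floor in the knockout and stood at 4.19 and 10.2 FPKM in the controls. The kinase gene Zap70 (26.4 FPKM against 74.1 and 56.4) and the costimulatory receptor gene Cd28 (5.27 against 15.9 and 17.4), both named outside the rule, completed the 7 lower genes of the receptor list with Ptcra, Cd3d, Cd3g, Cd2 and Cd5. The 3 higher genes were Trat1, which encodes a transmembrane adaptor, with 153 FPKM in the knockout library, 54.2 in the day 4 control and 43.2 in the day 3 control, then Themis, named outside the rule, and Tespa1, carried as 5830405N20Rik. Trat1 also stood at 163 FPKM in the uncultured floxed library and at 49.1 in the CreERT2 library.

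Dntt encodes the template-independent polymerase that adds bases at receptor gene junctions. It measured 125 FPKM in the knockout library, 763 in the day 4 control and 601 in the day 3 control, 6.11-fold and 4.81-fold below the controls, and the uncultured libraries held 890.2 and 884 FPKM. Rag1 lay between the controls (68.2 FPKM against 81.8 and 43.1). Of the 3 recombination genes 1 was lower and 0 were higher, against 2.8% and 6.96% of all genes. Among 45 T-cell receptor V segments past the filter, 21 (46.7%) were lower and 0 higher, beside the same shares. Their median difference was -0.88, and -0.06 between the undeleted lines.

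Transcription factors of the T lineage were mostly within or near the control range. Of 19, 3 were lower (Bcl11b, Id3 and Ikzf3) and 1 was higher (Runx3), against 2.8% and 6.96% of all genes. Id3, an E-protein inhibitor that pre-T-cell receptor signals are known to induce, measured 20.2 FPKM in the knockout library, 68.3 in the day 4 control and 52.2 in the day 3 control, 3.39-fold and 2.59-fold lower. The uncultured libraries were low as well (13.7 and 26.7 FPKM). Runx3, a factor of cytotoxic and innate lymphocytes, measured 84.1 FPKM in the knockout library, 19.9 in the day 4 control and 28.4 in the day 3 control. Gata3, required for early T-cell development, measured 85.8 FPKM in the knockout library, 44.0 in the day 4 control and 47.6 in the day 3 control, a margin of 0.84 and short of 2-fold. Tcf7 and Lef1, related factors of T-cell development, were between the controls: Tcf7 at 670.5 FPKM against 1015 and 659, and Lef1 at 70.7 against 66.0 and 75.5.

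**Figure D2:**
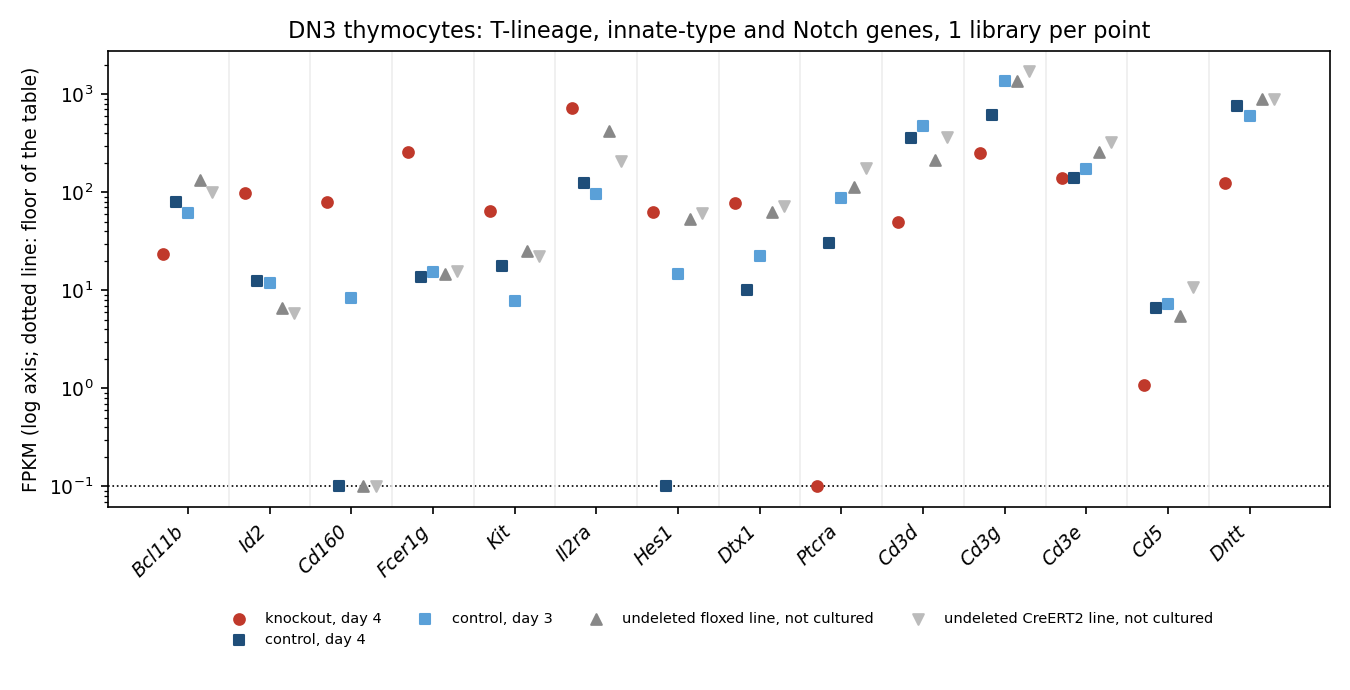
FPKM on a log axis for 14 genes; each point is 1 library (red, knockout; blue squares, cultured controls; grey triangles, uncultured undeleted lines) and the dotted line marks the floor of 0.1 FPKM. The knockout is the highest of the 5 libraries for Id2, Cd160, Fcer1g, Kit and Il2ra, and the lowest for Bcl11b, Ptcra, Cd3d, Cd3g, Cd5 and Dntt, while Cd3e overlaps the day 4 control.

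Regulators and receptors of innate lymphocytes stood higher in part. Of 10 innate lymphoid regulators in the table, 5 were higher and 0 lower, against 6.96% and 2.8% of all genes. Their median was 1.20, and 0.02 between the undeleted lines. Tox2, a relative of the factor TOX of innate lymphoid development, measured 27.0 FPKM in the knockout library, 3.10 in the day 4 control and 3.86 in the day 3 control. Nfil3, needed for NK and innate lymphoid precursors, measured 9.51 FPKM in the knockout library, 2.93 in the day 4 control and 2.97 in the day 3 control. In both cases the controls lay close together and the uncultured libraries were at or below their level. Zbtb16, which encodes the innate-like lymphocyte factor PLZF, measured 7.54 FPKM in the knockout library, 1.77 in the day 4 control and 5.72 in the day 3 control, close above the day 3 control, with a margin of 0.34. Eomes, a regulator of mature NK cells, remained below 1 FPKM in all 3 libraries.

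NK receptors and adaptors did not move as a block. Of 18 in the table, 11 reached 1 FPKM. Among these, 4 were higher and 0 lower, against 6.96% and 2.8% of all genes. Fcer1g, the gamma chain with which several activating receptors signal, measured 256 FPKM in the knockout library, 13.6 in the day 4 control and 15.3 in the day 3 control, 18.8-fold and 16.7-fold above the controls. Cd244, an NK-type receptor of the SLAM family, measured 25.8 FPKM in the knockout library, 3.54 in the day 4 control and 0.945 in the day 3 control. Il2rb, the shared beta chain of the interleukin 2 and 15 receptors, measured 23.2 FPKM in the knockout library, 10.4 in the day 4 control and 4.04 in the day 3 control. These genes and Cd160 were higher than in every undeleted or control DN3 library. Tyrobp, the signalling adaptor DAP12, behaved otherwise: at 17.9 FPKM the knockout lay between the day 4 control (9.59) and the day 3 control (47.2). Klrd1, the CD94 chain, measured 6.61 FPKM in the knockout library and 4.45 in the day 3 control, and was listed at the floor in the day 4 control. Of the receptors that define NK cells, Ncr1, Klrk1, Klrc1 and Klrb1b were below 1 FPKM in all 3 libraries.

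Cytotoxic and effector genes had a higher median than the NK receptors. Of 14 in the table, 10 reached 1 FPKM, 7 were higher and 0 lower, against 6.96% and 2.8% of all genes. Centring the libraries left 5 higher. The median over all members was 1.75. Nkg7, a granule membrane protein, measured 256 FPKM in the knockout library, 20.8 in the day 4 control and 38.4 in the day 3 control, 12.3-fold and 6.66-fold above the controls. Xcl1, a chemokine of NK and innate-like T cells, measured 7.60 FPKM in the knockout library, 0.223 in the day 4 control and 0.229 in the day 3 control. Serpinb9 and Serpinb6b, inhibitors of granule proteases, had margins of 2.04 and 2.50. Gzma, a granzyme gene that lies outside the naming rule, was abundant in every culture, with 2182 FPKM in the knockout library, 398 in the day 4 control and 1025 in the day 3 control. It was listed at the floor in both uncultured libraries. Prf1, which encodes the pore-forming perforin, and Ifng, which encodes interferon gamma, were below 1 FPKM in all 3 cultures.

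Receptors for cytokines and homing signals were higher in part. For every list here, the shares over all genes were 6.96% higher and 2.8% lower. Of 17 cytokine receptor genes 5 were higher and 0 lower by 2-fold, and 5 lay below both controls by any amount (median 0.45). Of 9 cytokine response genes 2 were higher, Cish and Pim1. Il2ra measured 723 FPKM in the knockout library, 123 in the day 4 control and 95.8 in the day 3 control, 5.88-fold and 7.55-fold above the controls. Uncultured cells held 422 and 209 FPKM, so both cultured controls lay below both uncultured libraries. Il2rg, the common gamma chain, measured 279 FPKM in the knockout library, 100.2 in the day 4 control and 105 in the day 3 control. Of 14 migration and homing genes 6 were higher, among them Itgb7, Ccr4, Cxcr5, Klf2 and Itga4 (median 1.44). Itgb7, an integrin chain of gut-homing lymphocytes, measured 87.3 FPKM in the knockout library, 4.98 in the day 4 control and 16.8 in the day 3 control. Ccr4 and Cxcr5, chemokine receptors of mature lymphocytes, had margins of 2.07 and 1.87. Of 11 inhibitory and costimulatory receptors 3 were higher (Tnfrsf9, Lag3 and Tnfrsf18) and 1 was lower (Cd200); with quantile normalization Lag3 and Tnfrsf18 no longer reached 2-fold.

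Several Notch target genes were on the side of the uncultured cells. Of 12 Notch receptors and targets, 6 were higher and 1, Ptcra, was lower, against 6.96% and 2.8% of all genes. Centring the libraries gave 4 and 2. Hes1, a repressor that Notch induces, measured 62.7 FPKM in the knockout library, was listed at the floor in the day 4 control and stood at 14.7 in the day 3 control. Dtx1, which encodes the Notch pathway protein Deltex 1, measured 78.0 FPKM in the knockout library, 10.1 in the day 4 control and 22.4 in the day 3 control. In uncultured cells Hes1 stood at 53.7 and 60.8 FPKM and Dtx1 at 62.4 and 72.7 FPKM, within 1.5-fold of the knockout in each case. Heyl had a margin of 1.88. Nrarp, a Notch-induced feedback inhibitor, measured 35.4 FPKM in the knockout library, 1.63 in the day 4 control and 17 in the day 3 control, and was listed at the floor in both uncultured libraries. Receptor transcripts differed in another way: Notch1 measured 114 FPKM in the knockout library, 103 in the day 4 control and 83.3 in the day 3 control, while Notch3 measured 12.6 FPKM in the knockout library, 25.1 in the day 4 control and 28.4 in the day 3 control, below both controls by a margin of -0.94. Uncultured cells had far higher Notch3, at 106 and 95.6 FPKM.

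The position relative to uncultured cells was counted for all genes as well. Of the 986 higher genes, 513 (52%) had both cultured controls below both uncultured libraries, against 32.3% of the 14157 genes; the knockout lay above both uncultured libraries for 900 of the 986, between them for 76 and below both for 10. Of the 396 lower genes, 224 (56.6%) had both cultured controls above both uncultured libraries, against 12.4% of the 14157 genes; the knockout lay below both uncultured libraries for 293 of the 396, between them for 91 and above both for 12. Nothing is read from these shares, because genes chosen for low or high controls tend to have controls on that side of other libraries too.

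Progenitor genes depended on which control was used. Of 19 progenitor regulators 5 were higher and 0 lower beyond both controls, against 6.96% and 2.8% of all genes. Against the day 4 control alone 10 were higher, and against the day 3 control alone 5 were higher and 3 lower. Kit, the stem cell factor receptor that falls as cells leave the DN2 stage, measured 63.9 FPKM in the knockout library, 17.6 in the day 4 control and 7.79 in the day 3 control. Nfe2 and Hhex, factors of multipotent and early blood cells, had margins of 1.65 and 1.59. Lyl1, a basic helix-loop-helix factor of progenitors, measured 31.1 FPKM in the knockout and 9.78 in the day 3 control, and was listed at the floor in the day 4 control. Spi1 (carried as Sfpi1), which encodes PU.1, lay between the controls at 4.18 FPKM, against 10.4 on day 3 and the floor on day 4.

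Of the genes of later thymocytes a minority passed. Of 11 beta-selection and double-positive genes 3 were higher (Cd8a, Cd69 and Bcl6) and 0 lower, against 6.96% and 2.8% of all genes. Cd8a, a coreceptor chain, measured 29.0 FPKM in the knockout library, 5.24 in the day 4 control and 9.38 in the day 3 control, and Cd8b1 had a margin of 0.24; both were listed at the floor in the uncultured libraries. Of 7 gamma-delta and type 17 genes 1, Etv5, was higher.

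Target genes of p53 had the highest median difference of the 24 lists when all members in the table were counted; over members past the filter, 2 mast cell and basophil genes had a higher one (2.78). The transcription factor p53 is stabilised by DNA damage and other stresses and is known to induce genes that arrest the cell cycle, repair DNA and start apoptosis. All 14 listed targets were in the table, and 13 were higher by 2-fold beyond both controls, against 6.96% of all genes; Eda2r reached 1 FPKM in the knockout library alone. Fas, the other member, stood above both with a margin of 0.31. The median difference was 2.27, against 0.11 over all genes in the table, 0.23 between the undeleted lines and -0.05 between the LckCre libraries described below. The count remained 13 with centring and with quantile normalization. It was 13 of the 14 also when both uncultured libraries had to be exceeded 2-fold. Against a single control the count cannot fall by construction, and it was 13 against day 4 alone and 14 against day 3 alone.

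Promoter sequence was examined for these genes because the list is defined by a DNA-binding factor. RefSeq promoters (build GRCm38.p6, 250 bases before to 50 after each annotated start) were searched for 11 of the 14 genes. Not all chromosomes were included, and no promoter was searched for Pmaip1, Trp53inp1 and Zmat3. The window was searched for the p53 response element, taken as 2 adjacent copies of the 10-base half-site consensus with no base between them, the central C and G of each copy intact and up to 3 other bases off. The consensus reads the same on both strands, and the limit of 3 was chosen after matches had been seen. Windows of 4 of the 11 genes held a match, as did 441 of the 27025 genes searched (1.63%). Nothing is read from these shares, because the genes were listed as known p53 targets and the limit followed the matches. Each line gives the strand of the gene from 5′ to 3′, the element in capitals.
Cdkn1a, chr17:29090908-29090967, plus strand, element beginning 51 bases before a start, 1 mismatch: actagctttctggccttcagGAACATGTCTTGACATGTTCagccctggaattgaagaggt
Ccng1, chr11:40755442-40755501, minus strand, element beginning 195 bases before the start, 1 mismatch: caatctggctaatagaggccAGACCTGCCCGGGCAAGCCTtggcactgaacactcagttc
Bbc3, chr7:16309466-16309525, plus strand, element beginning 97 bases before a start, 3 mismatches: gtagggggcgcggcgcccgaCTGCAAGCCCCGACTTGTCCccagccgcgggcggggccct
Aen, chr7:78895937-78895956, plus strand, element beginning 10 bases after a start, 3 mismatches: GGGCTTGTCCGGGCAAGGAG
A match describes these letters in this window only, and no binding was measured.

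Cell cycle inhibitors and p53 feedback genes had these levels. Cdkn1a, which encodes the cyclin-dependent kinase inhibitor p21, measured 162 FPKM in the knockout library, 22.7 in the day 4 control and 26.2 in the day 3 control. Ccng1, cyclin G1, measured 173 FPKM in the knockout library, 17.6 in the day 4 control and 12.3 in the day 3 control, 9.83-fold and 14.0-fold above the controls. Mdm2, the ubiquitin ligase that limits p53, measured 111 FPKM in the knockout library, 31.1 in the day 4 control and 24.1 in the day 3 control. The knockout lay above both controls for each, and above the uncultured libraries, where Cdkn1a stood at 33.4 and 32.0 FPKM. Phlda3, an inhibitor of the kinase Akt, measured 68.8 FPKM in the knockout library, 4.17 in the day 4 control and 5.21 in the day 3 control, 16.5-fold and 13.2-fold above them. Zmat3, an RNA-binding p53 target, measured 24.7 FPKM in the knockout library, 1.68 in the day 4 control and 1.47 in the day 3 control. Sesn2, a stress-induced regulator of mTORC1, measured 21.8 FPKM in the knockout library, 2.65 in the day 4 control and 3.36 in the day 3 control. Trp53, which encodes p53 itself and was looked up after the list, measured 148 FPKM in the knockout library, 125 in the day 4 control and 117 in the day 3 control, a margin of 0.25.

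Of the apoptosis genes on the list, Bbc3, Pmaip1 and Bax were higher and Fas, a death receptor gene, was not. Bbc3, which encodes the BH3-only protein PUMA, measured 29.2 FPKM in the knockout library, 6.55 in the day 4 control and 8.93 in the day 3 control. Pmaip1, which encodes NOXA, measured 23.0 FPKM in the knockout library, 3.03 in the day 4 control and 2.13 in the day 3 control. Bax, the pore-forming effector, measured 260.0 FPKM in the knockout library, 73.6 in the day 4 control and 105 in the day 3 control. These were the 3 higher genes among 12 of the Bcl2 family, against 6.96% of all genes. The others, which include Bcl2, Mcl1, Bcl2l11 and Bak1, lay within 2-fold of a control or between the controls, with Bcl2l11, the BH3-only gene of BIM, at 25.1 FPKM against 22.0 and 19.4.

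**Figure D3:**
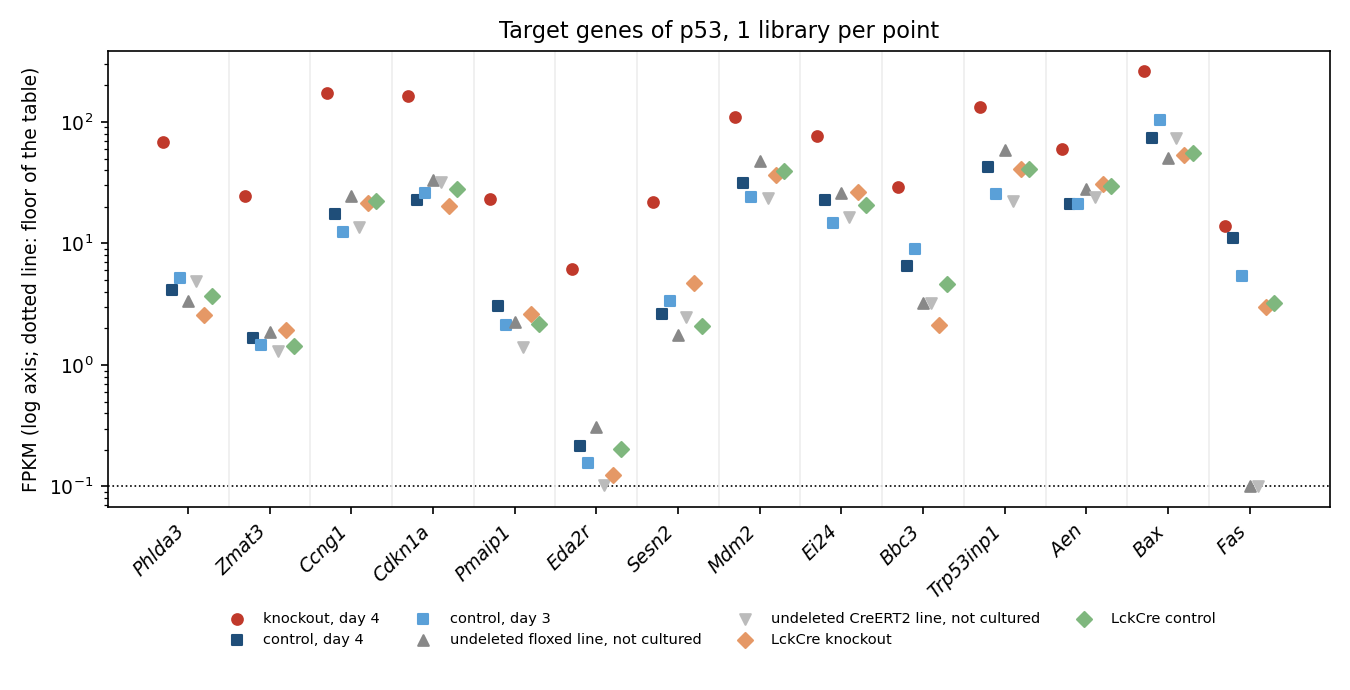
FPKM on a log axis for the 14 p53 target genes, ordered by margin; each point is 1 library, and the dotted line is the floor of 0.1 FPKM. The knockout DN3 library (red) is the highest of the 7 libraries for each gene, and the LckCre knockout library (orange) lies below it for each.

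Of 19 proliferation genes 1, Birc5, was lower by 2-fold and 1, Ccnd2, was higher, against 2.8% and 6.96% of all genes. By any amount 15 lay below both controls, against 27.8% of all genes (median -0.68; -0.27 between the undeleted lines). Birc5, which encodes the mitotic protein survivin, measured 63.3 FPKM in the knockout library, 141 in the day 4 control and 142 in the day 3 control, and the uncultured floxed library held 58.5 FPKM. Ccnd2, a D-type cyclin, measured 64.5 FPKM in the knockout library, 21.9 in the day 4 control and 24.8 in the day 3 control. The uncultured floxed library already held 64.8 FPKM of Ccnd2, and the uncultured CreERT2 library 38.7. Transcripts of the Hist1 cluster of replication-dependent histones had a larger difference: 34 of 49 were lower and 0 higher, with a median difference of -2.01, and -0.86 between the undeleted lines. Histone genes of this cluster are close copies, their messages mostly lack poly(A) tails, and the libraries were selected on oligo-dT, so their values are uncertain. Ribosomal protein genes had a median difference of -0.50 in the cultures and -0.96 between the undeleted lines, and mitochondrial transcripts 0.90 and 0.92. Of 12 immediate early and heat-shock genes 0 were higher and 1, Hspa1b, was lower. Of 12 interferon-induced genes 1, Irf7, was higher, and that one did not reach 2-fold with quantile normalization.

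The 15 genes with the largest positive margins included Fcer1g and Phlda3 beside genes outside the lists. Serpine2, a secreted protease inhibitor, measured 74.1 FPKM in the knockout library, 1.40 in the day 4 control and 0.513 in the day 3 control, the largest margin under the naming rule (4.97). Matn1, a cartilage matrix protein, measured 31.2 FPKM in the knockout library, 0.332 in the day 4 control and 0.295 in the day 3 control. Sulf2, an enzyme that edits heparan sulfate, measured 32.6 FPKM in the knockout library, 0.675 in the day 4 control and 0.392 in the day 3 control. These 3 genes were below 2 FPKM in both controls and both uncultured libraries. Tnfsf4, the OX40 ligand, measured 25.9 FPKM in the knockout library, 0.409 in the day 4 control and 0.161 in the day 3 control. Pear1, Ahnak2, Ak1, Rhod, Cd47, Hmcn2, Ctla2b, Fcer1g, Phlda3, Ifitm3 and H2-Q6 made up the rest. The entry carried as Cd47 has an identifier not found in GENCODE M21, so which transcript it measures is uncertain. That entry stood at 4.41 FPKM in the uncultured floxed library and at the floor in the CreERT2 library. Ifitm3, an antiviral membrane protein, measured 806 FPKM in the knockout library, 65.8 in the day 4 control and 77.1 in the day 3 control. H2-Q6 belongs to a family of near-identical class I genes, so its value and that of H2-Q2 below are uncertain.

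Among the 15 most negative margins, 7 were Hist1 genes. Pdlim4, a cytoskeletal adaptor, was listed at the floor in the knockout and stood at 137 and 98.0 FPKM in the controls, with 9.75 and 10.1 FPKM in uncultured cells. Tnfrsf8, which encodes CD30, was listed at the floor against 14.5 and 12.8 FPKM. Ccdc18 was listed at the floor against 12.9 and 13.2 FPKM. Rpl11, a ribosomal protein gene with many processed copies, measured 98.8 FPKM in the knockout library, 1436 in the day 4 control and 1478 in the day 3 control; the uncultured floxed library was low too, at 299.7 FPKM against 1301 in the CreERT2 library. Ybx2, H2-Q2, Cd2 and Ptcra were the others.

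Markers of other cells were mixed. Over all genes 6.96% were higher, the share to set beside each count here. Stromal markers, which could come from the feeder layer, summed to 126 FPKM in the knockout library, 102 in the day 4 control and 36.8 in the day 3 control. Of 12 stromal markers found, 1 (Pdgfrb) was higher, at 44.2 FPKM against 15.3 and 11.2, but it was also present in uncultured cells (21.4 and 16.7 FPKM), while the collagen genes Col1a1 and Col1a2 lay between the controls at 5.08 and 7.53 FPKM. Myeloid and dendritic markers summed to 93.8, 91.3 and 151 FPKM, with 0 of 12 higher. B-cell markers summed to 42.1, 18.5 and 23.4 FPKM; 2 of 8 were higher, the coactivator gene Pou2af1 and Vpreb1, while the receptor chain gene Cd79a was below 1 FPKM in all 3 libraries. Erythroid markers summed to 21.1, 7.60 and 69.1 FPKM, and 2 of 4, the globin genes Hba-a1 and Hbb-b1, were higher at 2.29 and 3.11 FPKM. Of 4 mast cell and basophil markers 2 were higher: Cpa3 measured 262 FPKM in the knockout library, 45.8 in the day 4 control and 43.7 in the day 3 control, and Mcpt8 11.3 FPKM in the knockout library and 1.02 in the day 4 control, with the floor in the day 3 control, while Gata2 and Mcpt4 were below 1 FPKM in all 3. The part of cells of these types in the results was not tested.

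**Figure D4:**
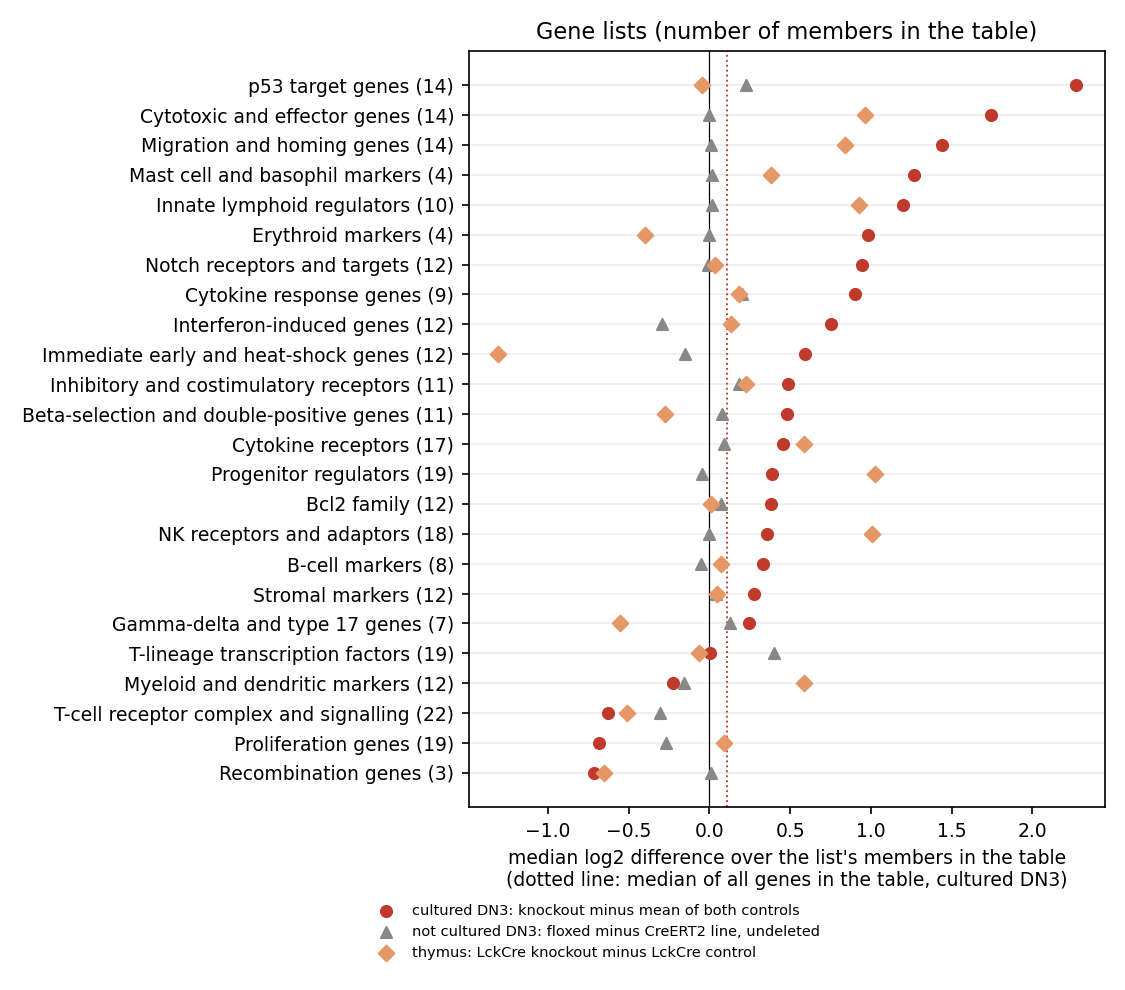
Median log2(FPKM + 1) difference over the members of each gene list in the table, with the number of members after each name; red, cultured knockout minus the mean of both controls; grey, uncultured floxed minus CreERT2 line; orange, LckCre knockout minus LckCre control. The dotted line is the median of all genes in the cultured comparison (0.11). Target genes of p53 have the highest red value (2.27) with an orange value of -0.05, while cytotoxic, migration and innate lymphoid lists have both red and orange values above 0.8.

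Libraries of the series that share no sample with these cultures gave a second view of Bcl11b loss. Precursors from fetal liver, floxed for Bcl11b or intact, were transduced with a Cre retrovirus and grown on stroma with Notch ligand. There were 14 knockout and 11 control libraries. The ligand was the Delta-like form DL1 in some libraries and DL4 in others. IL-7 was standard for 10 knockout and 8 control libraries and reduced for the rest. There limma (adjusted p under 0.05, stroma and IL-7 as covariates) called 1242 of 12678 genes higher (9.8%) and 900 lower (7.1%). With title dates as pairs, 659 were higher and 623 lower. By their titles, more than any other label the knockout libraries were DN2a and the controls DN2b, an earlier and a later phenotype. Some pairs carry the same stage label in both genotypes. Stage was not in the fit, so the parts of stage and genotype were not separated. Of 819 genes higher in the DN3 knockout and tested in fetal liver, 368 were called higher there (44.9%, against 9.59% of all genes tested in both) and 26 lower; they were 30.7% of the genes called higher in fetal liver. Of 355 lower genes, 123 were called lower (34.6%, against 7.11%) and 8 higher; they were 13.9% of those called lower.

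Another setting is deletion inside the thymus with Cre driven by the T-cell promoter of Lck, with 1 knockout library staged DN2 and 1 control staged DN3. It had 4.73% of genes higher and 3.56% lower by 2-fold. Of 851 genes higher in cultured DN3 cells, 243 were also 2-fold higher there (28.6%, against 4.59% of all genes past both filters, and 40.6% of those higher there). Of 391 lower genes, 101 were lower there (25.8%, against 3.59%, and 21.6% of those lower there). In the opposite direction, 31 of the 851 higher genes were 2-fold lower with LckCre and 10 of the 391 lower genes were 2-fold higher. In all 3 settings, 188 genes were higher and 60 lower. No share over all genes was computed for these counts, and nothing is read from their size.

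Genes higher in all 3 settings included Id2, Cd160, Fcer1g, Cd244, Tox2, Nfil3, Il2rb, Itgb7, Cxcr5, Serpinb9 and Cpa3. Fcer1g averaged 308 ± 68.4 FPKM (SD, n = 14) in the fetal liver knockout libraries, the controls 53.6 ± 30.0 FPKM (SD, n = 11), and the knockout was higher in 9 of 9 pairs. By limma it rose by 2.72 on the log2 scale (adjusted p = 1.72e-08, SE 0.25). In the LckCre libraries it stood at 176 FPKM against 27.5. Cd160 rose by 1.19 on that scale (limma adjusted p = 2.25e-07, SE 0.13, 9 of 9 pairs) and stood at 51.4 against 10.6 FPKM with LckCre. The innate regulator Tox2 rose by 1.29 (limma adjusted p = 0.00508, SE 0.32, 9 of 9 pairs). Kit was called in fetal liver (log2 difference 0.96, limma adjusted p = 0.0051, 8 of 9 pairs) but not with the pairs as a block (adjusted p = 0.0576).

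Genes lower in all 3 settings included Bcl11b, Ptcra, Cd3d, Cd3g, Cd5, Id3 and Tnfrsf8. Cd3d differed by -2.92 on the log2 scale in fetal liver (limma adjusted p = 0.000615, SE 0.58), with 9 of 9 pairs lower, and stood at 54.2 against 275 FPKM with LckCre. Ptcra differed by -2.22 (limma adjusted p = 0.000227, SE 0.40, 9 of 9 pairs lower) and stood at 43.8 against 139 FPKM.

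For other genes the settings gave unlike values. Cd3e, which did not separate the DN3 libraries, was lower in fetal liver, at -3.84 on the log2 scale (limma adjusted p = 3.85e-06, SE 0.51) and stood at 91.4 against 265 FPKM with LckCre. Tyrobp and Zbtb16, between or near the DN3 controls, were called higher in fetal liver with log2 differences of 3.43 (limma adjusted p = 1.4e-06, 9 of 9 pairs) and 2.26 (limma adjusted p = 0.000354, 8 of 9 pairs). Il2ra, higher in the DN3 knockout, had a fetal liver difference of 0.25 (limma adjusted p = 0.2, SE 0.13). The p53 targets had a fetal liver count of 2 higher (Sesn2 and Aen) and 1 lower (Fas) of 13 tested. Over all genes tested there, 9.8% were higher and 7.1% lower. With LckCre 0 of 14 differed 2-fold either way, against 4.73% higher and 3.56% lower over all genes. Cdkn1a had a fetal liver difference of 0.15 (limma adjusted p = 0.617, SE 0.16) and Phlda3 one of 0.17 (SE 0.11, adjusted p = 0.338). Whether the settings differ for these genes was not tested, since the DN3 cultures have no replicate.

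**Figure D5:**
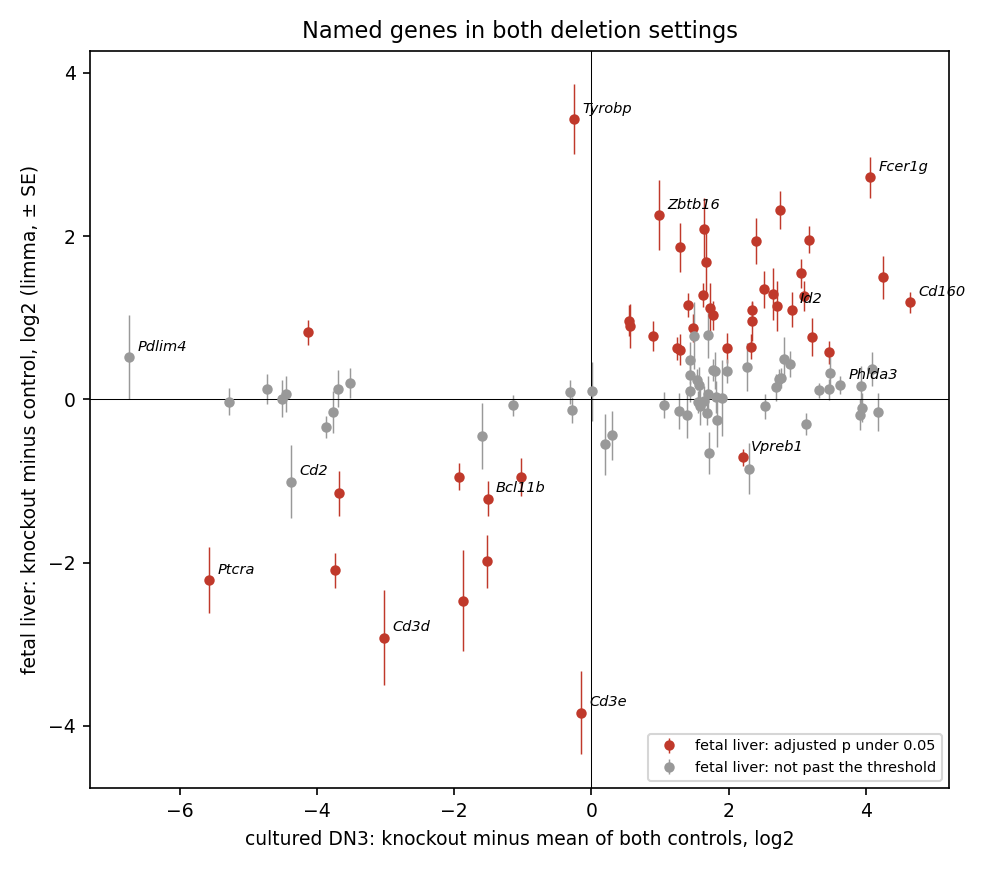
Log2 difference of named genes in the DN3 cultures (horizontal, knockout minus the mean of both controls) and in fetal liver cultures (vertical, limma estimate ± SE, 14 knockout and 11 control libraries). Of 113 named genes 102 were tested in fetal liver and 45 called in either direction (red). Of all genes tested there, 9.8% were called higher and 7.1% lower. Named genes were chosen partly by margin and with earlier results known, so nothing is read from this count. The 45 include Vpreb1 and Ybx2, called opposite to their DN3 difference. Fcer1g, Cd160 and Id2 lie to the upper right and Ptcra and Cd3d to the lower left. Cd3e and Tyrobp lie near 0 on the horizontal axis, and Phlda3 near 0 on the vertical one.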

How the data were processed

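RNA was extracted with Trizol, selected on oligo-dT beads, fragmented and copied by random priming, per the labels' protocols, which list no step that marks strand, so overlapping and antisense genes cannot be separated. The authors deposited 1 table of FPKM values for 17754 genes, named as adjusted by ComBat, with a lowest value of 0.1. The submitters' processing notes give the build mm9; which aligner and quantifier were run, and which batches ComBat removed, is not given in the sources used here. Another 16 columns matched no sample and were not used. Symbols were used as in the table, where 92 name 2 entries (both kept), and 16481 identifiers were found in GENCODE M21, used for gene classes.

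Differences were computed on log2(FPKM + 1), so folds of low genes are understated on that scale, while folds stated in the text are plain FPKM ratios. Genes reaching 1 FPKM in at least 1 of the 3 libraries were counted at 2-fold beyond both controls. The fetal liver test used limma 3.58.1 under R 4.3.3 (eBayes with trend, Benjamini-Hochberg adjustment) on genes at 1 FPKM in at least 11 libraries; other steps used Python 3.11.15, numpy 2.4.6, pandas 2.3.3 and matplotlib 3.10.9. Title dates in the labels pair 9 knockout and control libraries, 3 of them as the same cultures on different days; residual correlations of the pairs ran from -0.06 to 0.53. Where nothing says that libraries came from separate cultures or animals, p-values measure only the spread between these libraries. The margin and the limma step were run on simulated data with known shifts. For the margin, the simulated noise was much smaller than the difference between the real controls. That run checks the computation only and cannot show how many counted genes reflect differences between libraries.

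Members, the 24 gene lists and the rules were chosen with earlier results of these data known. Named genes were 26 fixed ones, the 15 largest margins each way with at least 5 FPKM (predicted genes, pseudogenes and receptor segments left out), and up to 6 members of each list past 2-fold, or the 2 most abundant where none was; others are named as outside that rule or were looked up as list members after values were seen. List members without a row in the table included Tbx21, Zfp683, Prdm1, Crtam, Slamf7, Il17a, Il17f, Il23r, Ccr6, Il1rl1, Atf3, Lum, Cd14, Siglech, Pax5, Vpreb3, Blnk, Ms4a1, Klf1, Epor, Ms4a2 and Fcer1a. The alternatives were another pseudocount, filters, folds and scalings, each control alone, the uncultured libraries as further controls, the pairs as a block, and 2 gene restrictions added after seeing the data. A few results on single genes are not reported here.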

Additional observations from a re-analysis of the deposited data

Results flagged for a closer look

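Vpreb1, a surrogate light chain gene of B-cell and T-cell precursors, was higher in the knockout DN3 library (margin 2.19) but lower in the knockout in 9 of 9 fetal liver pairs (log2 difference -0.71, SE 0.11, limma adjusted p = 1.87e-05). Hmcn2, a matrix protein gene, had a margin of 3.56 in the DN3 cultures and was also lower in 9 of 9 fetal liver pairs, at low levels that did not pass the filter there. The difference between the settings was not tested.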

How the results depend on the processing

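With a pseudocount of 0.1, 1577 genes were higher and 599 lower beyond both controls, 2227 differed between the undeleted lines and 1647 between the controls. At 1.5-fold 2332 were higher and 1025 lower, and at 3-fold 375 and 155. With the uncultured libraries as further controls 501 and 130 were left. With either control left out, higher genes numbered 1418 to 1759 and lower genes 641 to 927. Leaving out a control or lowering the pseudocount can only keep or widen a margin. All 75 named higher and 25 lower genes therefore stayed past 2-fold there by construction. Quantile normalization, which could change a call, kept 68 of the 75 (not Nrarp, Ccl5, Ctsw, Bcl6, Lag3, Tnfrsf18 and Irf7) and all 25. Restrictions chosen after seeing the data gave 794 and 299 (protein-coding genes) and 897 and 341 (genes at the floor left out). In fetal liver, the pairs as a replicate block left 659 higher and 623 lower, on 18 libraries; Kit (adjusted p = 0.0576), Heyl (0.0548), Ccl5 (0.0822) and Il17rb (0.241) lost their limma call. Libraries with standard IL-7 alone gave 729 and 667. The cause of these changes was not tested. Each DN3 value rests on 1 library of unknown depth.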

Other observations

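Genes outside the lists, picked after their values were seen, were also higher in all 3 Bcl11b knockout settings. Ifitm1, an interferon-inducible membrane protein gene like Ifitm3, measured 2863 FPKM in the knockout DN3 library against 383 on day 4 and 451 on day 3, and rose in fetal liver by 1.16 on the log2 scale (limma adjusted p = 0.000478, SE 0.23). The secreted growth factor binding protein gene Igfbp4 measured 522 FPKM against 43.7 and 90.3, and rose in fetal liver by 1.05 (limma adjusted p = 0.000469, SE 0.20). Cst7, an inhibitor of lysosomal proteases found in NK and cytotoxic cells, measured 116 FPKM against 17.1 and 15.7. Rgs10, a regulator of G-protein signalling, was lower in all 3 settings, at 9.70 FPKM in the DN3 knockout against 55.7 and 54.1. For each of these genes the uncultured DN3 libraries lay on the control side of the knockout.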
